A study of Arabidopsis thaliana with 12 samples.

Results

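Calmodulin-like proteins (CML) and calcium-dependent protein kinases (CPK) are the 2 gene families described here. They were taken from the deposited gene table as every row whose symbol is CML or CPK followed by a number, which gave 80 of 34218 genes, 46 CML and 34 CPK. Of these, 52 genes (28 CML and 24 CPK) had a mean level of at least 1 FPKM over all 12 libraries and are described individually. FPKM is a fragment count scaled to exon length and library total, so that levels can be compared between genes of different length.

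RNA sequencing was done on 14-day-old Arabidopsis thaliana seedlings, with leaves as the labelled tissue. Wild-type Col-0 was compared with Arabidopsis carrying pTaF5H1:TaF5H1, a wheat ferulate 5-hydroxylase gene behind its own wheat promoter, called the TaF5H1 line here. Ferulate 5-hydroxylase is an enzyme of lignin and sinapate synthesis. For 6 h, seedlings of each genotype stood in nutrient solution alone, the untreated groups, or received NaCl at 200 mM, the salt groups, with 3 biological replicates in each of the 4 groups. Wild-type plants carried no transgene, no empty-vector control is among the groups, and the labels do not say how many independent transformants the line stands for.

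Calcium rises in the plant cell within moments of salt, touch, cold or pathogen contact, and proteins with EF-hand calcium-binding loops turn that rise into a response. CML proteins are relatives of calmodulin that bind calcium but have no enzyme activity of their own, so they act by binding partner proteins. CPK proteins join an EF-hand domain to a protein kinase, so that one molecule both senses calcium and phosphorylates targets such as ion channels, NADPH oxidases and transcription factors of the abscisic acid response.

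Library totals were between 17173618 and 21651124 counts. In the salt-treated line, replicate 1 was unlike the others of its group. Its log-scale correlation with them was 0.932 and 0.937, against 0.993 between replicates 2 and 3. Values and calls of CML and CPK genes that changed without it are therefore given with the results below. Summed FPKM of 8 leaf mesophyll markers (Rubisco small subunits, light-harvesting proteins and the like) ranged over libraries from 30062 to 34043 in untreated wild type, 7497 to 7815 in salt-treated wild type, 21170 to 22861 in the untreated line and 933 to 3948 in the salt-treated line. Of 12 root markers found, 3 passed the filter and 4 were at 0 counts, among them the endodermal gene CASP1, and their sum was 18.8 to 59.1 FPKM over the groups. Guard cell markers did not share 1 direction. In untreated and salt-treated wild type and the untreated and salt-treated line, the means were 8.81, 9.21, 9.07 and 8.50 FPKM for FAMA, 1.83, 1.82, 1.83 and 1.89 FPKM for HT1, 12.4, 14.6, 15.1 and 14.9 FPKM for SCRM and 2.01, 3.1, 3.93 and 3.46 FPKM for SLAC1, and MYB60 and AHA1 had lower means with salt in both genotypes. The 7-gene sum of 273 to 2036 FPKM was carried by BCA1, a carbonic anhydrase gene that is also 1 of the 8 mesophyll markers. The part of these differences in the results below was not tested, and in whole tissue fewer cells of a type cannot be told apart from less RNA per cell.

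Sensors had the higher median level among the genes that passed the filter. These medians leave out 18 of 46 CML and 10 of 34 CPK genes, so they do not describe the whole families. The 28 CML genes had a median level of 51.8 FPKM (1.19 to 569), and 9 of them averaged at least 100 FPKM. The 24 CPK genes had a median of 23.05 FPKM (1.28 to 82.6), and none averaged 100 FPKM. CML10 led the sensors at 569 FPKM, followed by CML35 at 428 and CML27 at 370.0. CPK3 at 82.6 FPKM and CPK32 at 72.7 FPKM led the kinases. The filter was crossed most narrowly by CML8 (1.19 FPKM), CPK27 (1.28) and CPK2 (1.31), and the nearest genes below it were CML1 (0.362) and CML43 (0.188). CML39 and CPK2 passed only through the salt-treated libraries (means of 0.743 and 0.57 FPKM over the untreated ones), CPK27 only through the untreated ones (0.74 FPKM over the salt-treated ones) and CML8 only through the salt-treated line (0.887 FPKM over the other groups), so their differences in those directions come with their selection.

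The 28 genes under the filter, 18 CML and 10 CPK, were at or near 0. They include CPK17, CPK34 and CPK24, kinases known from pollen, and CML25 and CML28. No count at all was recorded in any library for 8 CML (CML2, CML4, CML13, CML17, CML30, CML31, CML33 and CML34) and 3 CPK (CPK19, CPK20 and CPK25). A count of 0 need not mean a silent gene here. The annotated spans of CML2, CML4, CML13 and CML30 lie wholly inside those of other genes on the opposite strand. Of the 3369 genes of the table that lie wholly inside others, on either strand, 80.5% had 0 counts, against 24.7% of 22642 genes without overlap. Among 8207 genes with part overlap the share was 12.1%. Whether the counting dropped reads from overlapping genes is not given in the sources used here. Among the genes described below, all of them with part overlap at most, CML46 shares 98.2% of its span with other genes, CML40 70.1%, CML12 43.9%, CPK10 38.5%, CML24 34.3%, CPK33 33.1% and CML27 20.1%. Their levels are uncertain for that reason, by an amount that these shares do not measure.

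The coding parts of the families differ as well. In the TAIR10.1 annotation 20 of the 28 described CML genes had a single coding exon, with a median of 175 codons (146 to 354). None of the 24 CPK genes had a single coding exon, their median was 8 coding exons, and they ranged from 484 to 646 codons.

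The first comparison was salt against untreated in each genotype. A gene was called at an edgeR adjusted p under 0.05, over all 17038 genes with a mean of at least 1 FPKM. In wild type 15 CML genes rose, 4 fell and 9 were not called, a background in which 53.5% of all tested genes were called (27% up and 26.5% down). The median log2 fold change was 0.68 over the CML genes and -0.02 over all genes. In the line, which shares no library with the wild-type comparison, 15 CML genes rose, 6 fell and 7 were not called, with 64.8% of all genes called (31.4% up, 33.4% down) and a CML median of 0.92 against -0.05. Both genotypes shared the direction of every CML gene called in each: 14 rose in both, 4 fell in both and 0 moved in opposite directions. Without CML39, which the filter admitted through salt-treated libraries, 14 rose in wild type and 14 in the line. The 3 salt-treated libraries lay wholly above the 3 untreated ones for 23 of the 52 CML and CPK genes and wholly below for 15 in wild type, where 73% of all tested genes did not overlap, and for 18 and 11 in the line, where 64.9% did not.

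**Figure D1:**
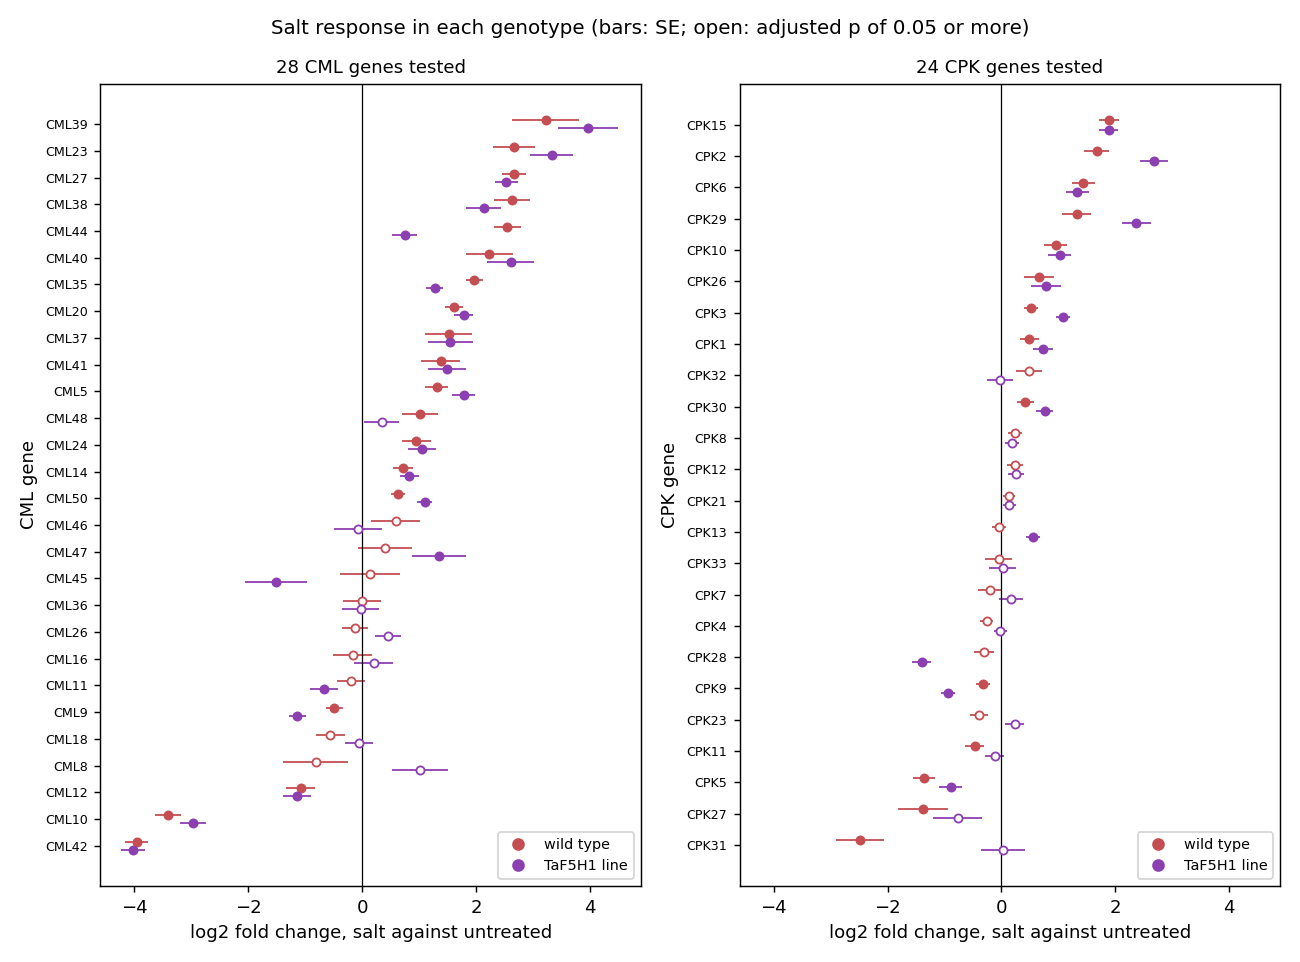
Log2 fold change of salt against untreated (horizontal axis) for the 28 CML genes (left) and 24 CPK genes (right) in wild type (red) and the TaF5H1 line (purple), with bars of 1 SE and open points where the adjusted p was 0.05 or more. CML genes spread from -4.02 to 3.96 and CPK genes from -2.48 to 2.68. The difference between the genotypes was called for CML44, CPK28 and CPK31. It was 1.83 for CML8 and -1.66 for CML45, which were not called.

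CML10 and CML42 had the deepest falls of either family. CML10, a sensor reported to bind phosphomannomutase in ascorbate synthesis, was the most abundant member before salt, at 1294, 946 and 1120.05 FPKM in untreated wild type, and stood at 106, 103 and 66.2 FPKM after salt. In the line it went from 954, 1050.04 and 883 FPKM to 87.9, 116 and 104 FPKM. All 6 salt-treated libraries lay far below all 6 untreated ones, with log2 fold changes of -3.41 ± 0.23 (SE) in wild type and -2.97 ± 0.23 in the line (adjusted p 4.7e-07 and 9.1e-07).

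CML42, known for roles in trichome branching and in defence against herbivores, was at 44.9, 52.3 and 40.5 FPKM in untreated wild type and at 2.80, 2.94 and 1.91 FPKM after salt. In the line it was at 22.9, 30.5 and 31.0 FPKM and then at 1.31, 1.46 and 1.57 FPKM. The salt-treated libraries of both genotypes were again below every untreated library. The log2 fold changes were -3.96 ± 0.20 and -4.02 ± 0.21 (adjusted p 4.7e-08 and 6.5e-08), the lowest of the 52 genes in both genotypes.

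CML12 and CML9 fell less. CML12 is TCH3, one of the touch-induced genes, and its untreated libraries held 241, 377 and 260.0 FPKM in wild type against 103, 139.6 and 117 FPKM after salt. Its log2 fold change was -1.08 ± 0.25 in wild type and -1.15 ± 0.25 in the line (adjusted p 0.0033 and 0.0017), the latter -0.89 ± 0.18 without replicate 1 of the salt-treated line. CML9, whose mutants are altered in salt and abscisic acid responses, was at 112, 129 and 104 FPKM in untreated and 70.6, 81.9 and 61.3 FPKM in salt-treated wild type, a log2 fold change of -0.49 ± 0.15 (adjusted p 0.015), without overlap between the groups. That call was lost when replicate 2 of untreated wild type or replicate 1 or 3 of salt-treated wild type was left out, with an adjusted p of up to 0.09. In the line CML9 fell from 155, 182 and 141 FPKM to 54.8, 62.1 and 64.2 FPKM, a log2 fold change of -1.14 ± 0.15 (adjusted p 4.7e-05), and this call held in each of 12 fits that left out 1 library.

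CML39, a close relative and neighbour of CML38, was near 0 without salt and passed the filter only through its salt-treated libraries, so its rise is given as a description. It was at 0.26, 0.42 and 0.71 FPKM in untreated and 3.30, 4.40 and 4.02 FPKM in salt-treated wild type, and at 0.40, 0.80 and 1.87 FPKM in the untreated and 6.17, 17.9 and 16.5 FPKM in the salt-treated line. Groups did not overlap in either genotype, and the log2 fold changes were 3.22 ± 0.59 and 3.96 ± 0.53 (4.32 ± 0.43 in the line without replicate 1). CML38, known to respond to wounding and low oxygen, rose at a much higher level, from 50.5, 96.8 and 49.6 FPKM to 341, 415 and 302 FPKM in wild type and from 119, 195 and 105 FPKM to 390.3, 536 and 607 FPKM in the line. Its log2 fold change was 2.63 ± 0.32 and 2.13 ± 0.31 (adjusted p 3.9e-05 and 0.00012).

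CML27 was evenly low before salt in wild type, at 88.5, 92.7 and 88.8 FPKM, and evenly high after it, at 512, 530.1 and 457 FPKM. In the line its untreated libraries held 148, 175 and 134 FPKM and its salt-treated libraries 505, 842 and 865 FPKM, with replicate 1 the lowest of the 3. The log2 fold changes were 2.67 ± 0.21 and 2.53 ± 0.20 (adjusted p 1.1e-06 and 1.3e-06), and 2.75 ± 0.13 in the line without replicate 1. CML35 ended at about the same level in both genotypes after salt, 571 to 682 FPKM in wild type and 585 to 627 FPKM in the line, from 166 to 212 FPKM and 290.1 to 306 FPKM. Its rise was 1.97 ± 0.15 and 1.27 ± 0.15 on the log2 scale (adjusted p 1.3e-06 and 2.4e-05).

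**Figure D2:**
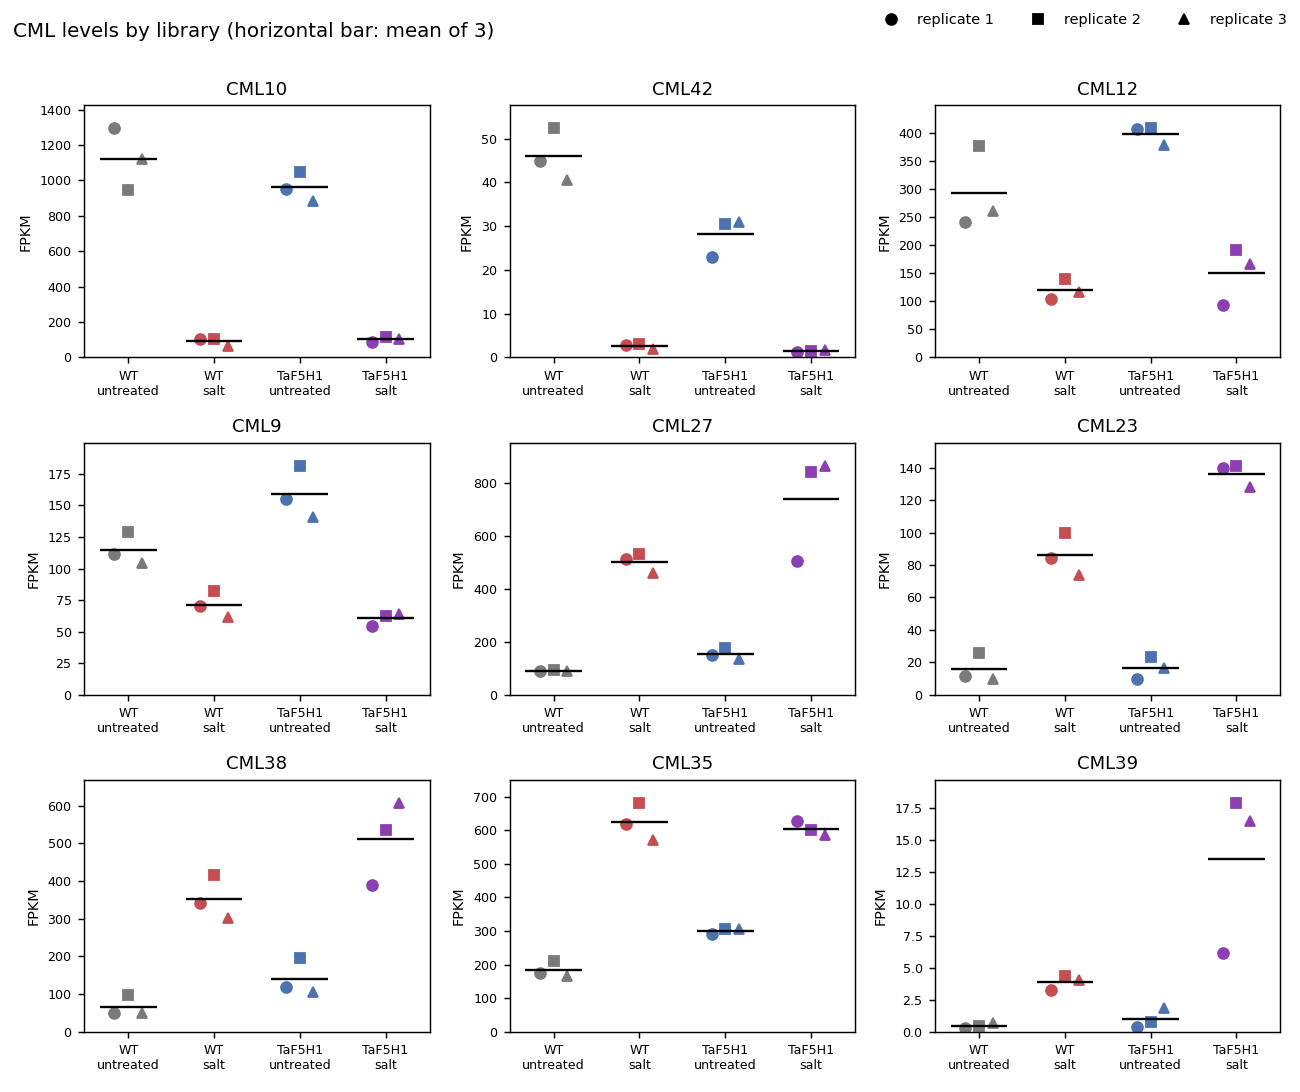
FPKM (linear axis from 0) of 9 CML genes in each of the 12 libraries, by group, with a horizontal bar at the mean of 3 libraries. CML10, CML42, CML12 and CML9 were lower after salt in both genotypes, and the other 5 were higher. Replicate 1 of the salt-treated line was the lowest of its group for all of them except CML23 and CML35.

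CML23 and CML24 are closely related sensors, CML24 being the touch gene TCH2. CML23 went from 11.4, 25.8 and 9.63 FPKM to 84.4, 99.6 and 74.1 FPKM in wild type and from 9.65, 23.2 and 16.1 FPKM to 139.8, 141 and 128 FPKM in the line. Every salt-treated library exceeded every untreated one, and the log2 fold changes were 2.67 ± 0.37 and 3.33 ± 0.38 (adjusted p 0.00011 and 2e-05). CML24 had higher untreated levels and a smaller rise, from 58.1, 108 and 58.0 FPKM to 123, 139.8 and 113 FPKM in wild type, 0.95 ± 0.25 on the log2 scale (adjusted p 0.0066), and by 1.05 ± 0.25 in the line (adjusted p 0.0029).

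The 250 bases before the starts of CML23, CML24 and CML9 are shown because they are the CML windows that hold the letters ACGCG or its reverse complement CGCGT, the core bound by calmodulin-binding transcription activators (CAMTA), which link calcium to transcription. The sequences are from the RefSeq TAIR10.1 assembly, read 5′ to 3′ on the minus strand, on which all 3 genes lie, at chr1:24771394-24771643 for CML23, chr5:14999620-14999869 for CML24 and chr3:19269659-19269908 for CML9. All 80 genes have the same start and end in the deposited table and in that annotation. Capitals mark ACGCG and CGCGT, which overlap by all but 1 base where they form ACGCGT.
CML23: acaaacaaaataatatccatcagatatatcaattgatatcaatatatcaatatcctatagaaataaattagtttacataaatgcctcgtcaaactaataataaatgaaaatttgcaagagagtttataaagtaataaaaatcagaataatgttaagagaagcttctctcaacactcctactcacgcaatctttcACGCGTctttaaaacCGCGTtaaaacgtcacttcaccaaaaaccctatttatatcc
CML24: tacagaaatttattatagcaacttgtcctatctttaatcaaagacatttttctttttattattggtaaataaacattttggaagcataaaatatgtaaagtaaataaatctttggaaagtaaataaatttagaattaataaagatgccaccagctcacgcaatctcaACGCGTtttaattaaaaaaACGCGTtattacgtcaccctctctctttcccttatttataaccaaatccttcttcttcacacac
CML9: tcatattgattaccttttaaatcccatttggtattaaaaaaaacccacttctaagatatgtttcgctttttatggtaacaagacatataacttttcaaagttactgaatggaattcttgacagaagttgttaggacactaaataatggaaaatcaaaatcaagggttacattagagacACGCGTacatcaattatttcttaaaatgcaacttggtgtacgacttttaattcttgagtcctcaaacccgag

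CML24 holds 2 copies of ACGCGT, CML23 holds 1 copy and a further CGCGT, and CML9 holds 1 copy. CML23 and CML24 rose with salt in both genotypes and CML9 fell in both. Whether the core had a part in these changes was not tested. The core was found in 6.87% of 27425 windows of protein-coding genes, in 3 of the 28 CML windows and in 1 of 23 CPK windows, that of CPK33, which was not called in either genotype. ACGTG or CACGT, the core of abscisic acid response elements, was found in 22.9% of all windows, in 7 of 28 CML windows (25%) and in 0 of 23 CPK windows. TTGAC or GTCAA, the core of W-boxes bound by WRKY factors, was found in 44.9% of all windows and in 27 of the 51 windows of described genes (52.9%). All 3 cores were counted on both strands, and 1 CPK window with unread bases was left out.

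The remaining CML genes called up in both genotypes were CML5, CML14, CML20, CML37, CML40, CML41, CML44 and CML50, with log2 fold changes of 0.63 to 2.55 in wild type and 0.75 to 2.61 in the line. CML20, a centrin-like protein linked to guard cell abscisic acid signalling, reached 1.61 and 1.78, and CML37, linked to drought and herbivory responses, 1.52 and 1.55. CML48 was called in wild type alone (1.01 ± 0.32, adjusted p 0.018, against 0.34 ± 0.31 in the line, adjusted p 0.36). CML47 rose (1.35 ± 0.47, adjusted p 0.024) and CML11 and CML45 fell (-0.67 ± 0.25 and -1.51 ± 0.54, adjusted p 0.033 and 0.027) by the test in the line alone, and these calls were lost in 3, 4 and 3 of 12 fits that left out 1 library, with an adjusted p of up to 0.12. The CML47 call also ended with library totals, limma or only the groups compared, and that of CML11 with only the groups compared. Without replicate 1 of the salt-treated line CML11 was not called (-0.47 ± 0.25, adjusted p 0.1), CML47 was at 1.83 ± 0.24, CML45 at -1.98 ± 0.64, CML40 at 2.99 ± 0.31 and CML41 at 1.85 ± 0.22. CML8 was then called up in the line and CML18 down in wild type, a contrast that this library enters only through the shared spread. The rise of CML44 in the line was not called with library totals or limma. The difference between the genotypes was tested separately and is given with the interaction below.

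Kinase changes with salt were smaller at the median. In all, 9 CPK genes rose, 5 fell and 10 were not called in wild type, and 10 rose, 3 fell and 11 were not called in the line. The shares called were 58.3% and 54.2%, against 53.5% and 64.8% of all tested genes. The median log2 fold change was 0.18 and 0.20, and the median size of change regardless of direction was 0.48 and 0.74, against 1.05 and 1.21 for CML genes and 0.60 and 0.76 for all genes tested. The CPK split depended on scaling: with library totals in place of TMM factors, a scaling that shifted the all-gene median to -0.22 and took upward calls from 50.5% to 36.7% of all calls, 6 CPK genes rose and 8 fell in wild type, while 15 CML genes rose and 5 fell. In the line the same scaling shifted that median to -0.31, took upward calls from 48.4% to 34.9% and left 8 CPK genes up and 3 down. Without CPK2 and CPK27, whose direction the filter favoured, 8 CPK genes rose and 4 fell in wild type and 9 and 3 in the line. Over the fits that left out 1 library, 6 to 11 CPK genes rose and 2 to 7 fell in wild type, and 9 to 13 rose and 3 fell in the line.

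Among kinases called up in both genotypes were CPK15, CPK6 and CPK29. CPK15 was at 3.06, 3.97 and 3.05 FPKM in untreated and 10.9, 11.2 and 10.5 FPKM in salt-treated wild type, and went from 6.58, 4.32 and 4.58 FPKM to 15.5, 16.9 and 15.4 FPKM in the line. The rise was of the same size in both, 1.89 ± 0.17 and 1.88 ± 0.17 on the log2 scale (adjusted p 4.4e-06 and 3.2e-06), and no groups overlapped. CPK6, a kinase of guard cells that activates the anion channel SLAC1, rose from 15.01, 21.0 and 17.3 FPKM to 41.2, 44.0 and 40.7 FPKM in wild type, by 1.44 ± 0.21 (adjusted p 0.00012), and by 1.33 ± 0.20 in the line (adjusted p 0.00015), or 1.57 ± 0.15 without its replicate 1.

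CPK29, known to phosphorylate PIN auxin carriers, was at 15.3, 16.9 and 15.7 FPKM in untreated and 32.6, 36.4 and 34.9 FPKM in salt-treated wild type. In the salt-treated line replicate 1 held 34.2 FPKM, at the wild-type level, and the other two libraries held 86.4 and 74.8 FPKM, from 17.3, 12.9 and 14.7 FPKM untreated. The log2 fold change was 1.32 ± 0.26 in wild type and 2.37 ± 0.26 in the line (adjusted p 0.0012 and 1.6e-05), and 2.69 ± 0.13 in the line without replicate 1. CPK2, which passed the filter only through its salt-treated libraries, went from 0.77, 0.77 and 0.79 FPKM to 2.05, 2.38 and 2.04 FPKM in wild type and from 0.42, 0.39 and 0.28 FPKM to 1.82, 1.59 and 2.42 FPKM in the line, log2 fold changes of 1.67 ± 0.22 and 2.68 ± 0.24 given as a description.

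CPK3, the most abundant kinase and one linked to salt acclimation and guard cell signalling, was called up in both genotypes. It went in wild type from 70.4 to 73.4 FPKM up to 85.4 to 95.0 FPKM (0.52 ± 0.12, adjusted p 0.0031), and in the line from 58.8 to 64.6 FPKM up to 91.0 to 117 FPKM (1.08 ± 0.12, adjusted p 1.3e-05). The difference between these responses was 0.56 ± 0.17 and was not called (adjusted p 0.068), and it was 0.65 ± 0.14 (adjusted p 0.002) without replicate 1 of the salt-treated line. CPK1, CPK10, CPK26 and CPK30 also rose by the test in both genotypes. Among these the wild-type calls of CPK1, CPK26 and CPK30, of 0.49, 0.66 and 0.42, were lost in 5, 8 and 4 of 12 fits that left out 1 library, and all 3 with library totals or limma. In the line CPK26 lost its call in 2 of 12 fits and with library totals, limma or only the groups compared. Without replicate 1 the responses of CPK1, CPK10 and CPK26 in the line were 0.94 ± 0.12, 1.3 ± 0.11 and 1.01 ± 0.24, and CPK7 was called as well (0.44 ± 0.11). CPK13 rose by the test in the line (0.55 ± 0.12) and was at -0.04 ± 0.12 in wild type, and its call ended with library totals (0.29, adjusted p 0.055) or limma.

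CPK5 and CPK9 fell in both genotypes. CPK5, which phosphorylates the NADPH oxidase RBOHD in immune signalling, was even within groups, at 63.3, 66.4 and 64.6 FPKM in untreated and 21.6, 21.6 and 22.8 FPKM in salt-treated wild type, a log2 fold change of -1.36 ± 0.20 (adjusted p 0.00016). In the line it went from 72.6, 61.4 and 65.7 FPKM to 18.3, 36.5 and 35.6 FPKM, -0.89 ± 0.20 (adjusted p 0.0021), with replicate 1 lowest and -0.62 ± 0.11 without it. CPK9 fell by 0.32 on the log2 scale in wild type (adjusted p 0.044, lost in 7 of 12 fits that left out 1 library, with no filter and with the replicate block) and by 0.94 in the line (adjusted p 4.6e-05, held in all 12). CPK11 fell by the test in wild type (-0.47 ± 0.17, adjusted p 0.04), a call lost in 6 of 12 such fits and with no filter. CPK27, which passed the filter only through its untreated libraries, was at -1.38 ± 0.44 in wild type (-0.96 without replicate 1 of the salt-treated libraries).

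**Figure D3:**
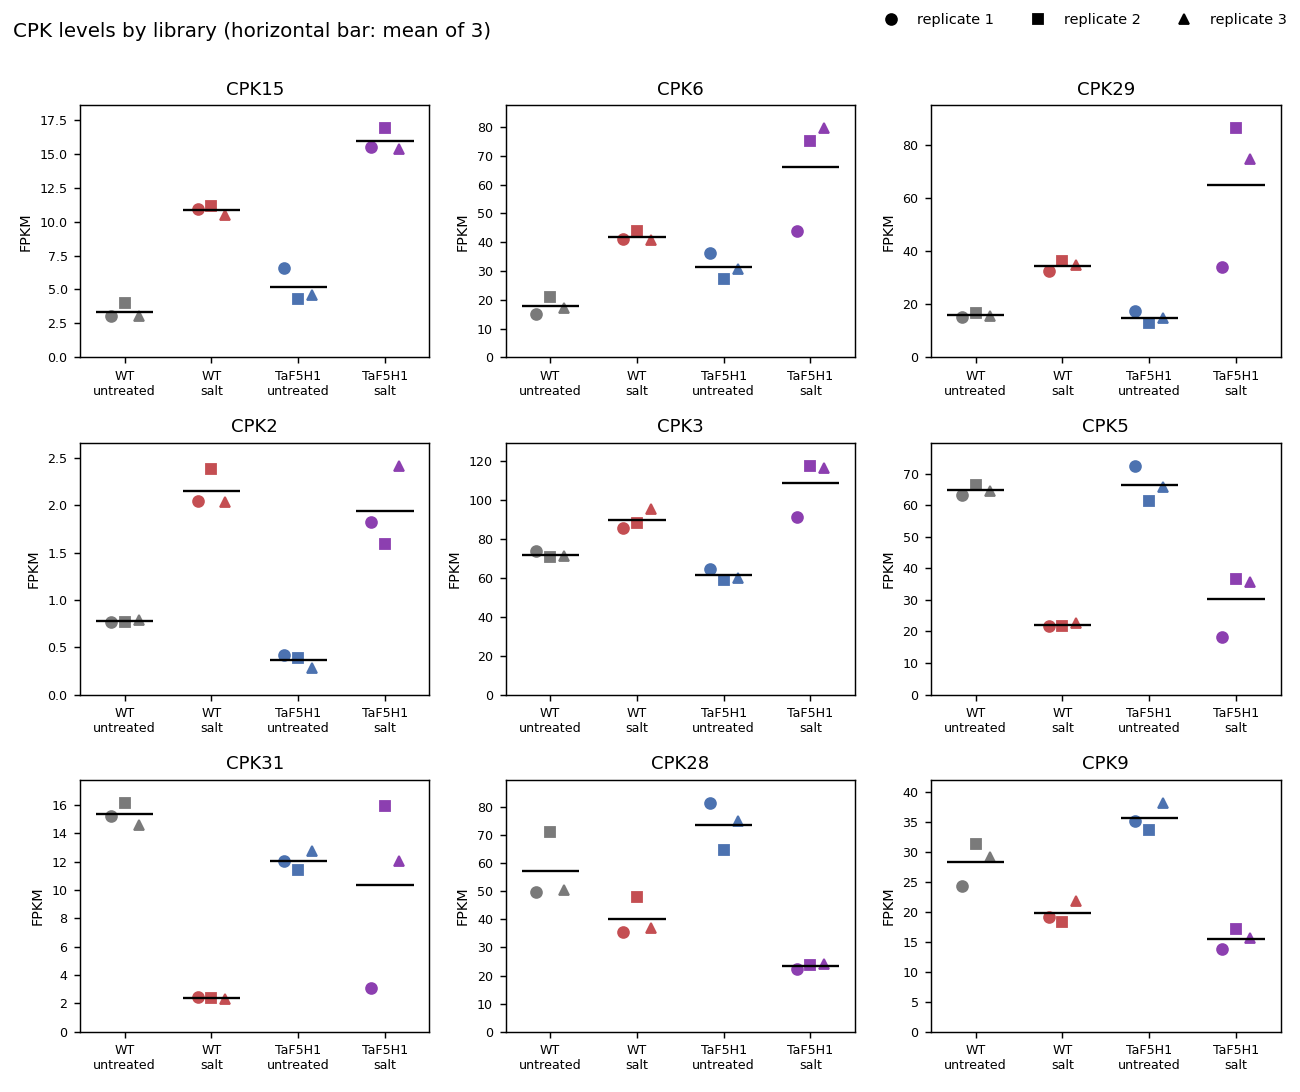
FPKM (linear axis from 0) of 9 CPK genes in each of the 12 libraries, by group, with a horizontal bar at the mean of 3 libraries. CPK15, CPK6, CPK29, CPK2 and CPK3 were higher and CPK5 and CPK9 lower after salt in both genotypes, and replicate 1 of the salt-treated line held 3.06 FPKM of CPK31 against 15.9 and 12.1 FPKM in the other two.

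Several kinases with known parts in osmotic and abscisic acid signalling were not called with salt in either genotype over all 12 libraries. CPK21, which activates anion channels under osmotic stress, was at 0.13 ± 0.11 and 0.14 ± 0.11 on the log2 scale, with signs that turned under library totals (-0.08 and -0.12). CPK4, which phosphorylates abscisic acid response factors together with CPK11, was at -0.26 ± 0.11 and -0.02 ± 0.11. CPK23 and CPK32 were at -0.40 ± 0.16 and 0.49 ± 0.23 in wild type (adjusted p 0.0519 and 0.092) and at 0.23 ± 0.16 and -0.02 ± 0.23 in the line. Both depended on replicate 1 of the salt-treated line. Without it CPK23 was called down in wild type (-0.37 ± 0.12, adjusted p 0.017) and up in the line (0.41 ± 0.13, adjusted p 0.014), with a difference of 0.78 ± 0.18 (adjusted p 0.0041), CPK32 was called up in wild type (0.51 ± 0.19, adjusted p 0.027), and CPK8 was called up in wild type (0.26 ± 0.11, adjusted p 0.042).

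The second comparison was the line against wild type without salt. These contrasts use libraries that also entered the salt contrasts. Of the sensors, 7 CML genes were higher in the line, 1 was lower and 20 were not called, where 13.8% of all tested genes were called (7.25% up, 6.5% down), and the CML median was 0.56 against 0.01 for all genes. For kinases, 1 gene was higher, 1 lower and 22 not called, with a median of -0.08. With library totals the all-gene median shifted to 0.10 and upward calls went from 52.7% to 66.3% of all calls, and the CML counts stayed at 7 and 1. Libraries of the line lay wholly above wild type for 18 of the 52 genes and wholly below for 6, where 44% of all tested genes did not overlap. Leaving out 1 library gave 2 to 10 CML genes higher in the line, the 10 being without replicate 1 of the salt-treated line, a library that is not in this contrast but adds to the shared spread.

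CML46, CML47, CML44 and CML41 had the largest differences without salt. CML46, linked together with CML47 to the control of salicylate-dependent immunity, was at 11.2, 22.8 and 9.52 FPKM in wild type and 82.2, 101 and 39.4 FPKM in the line, a log2 difference of 2.27 ± 0.44 (adjusted p 0.0075). CML47 was at 19.4, 24.6 and 23.6 FPKM in wild type and 93.2, 92.6 and 57.8 FPKM in the line, a difference of 1.76 ± 0.48 (adjusted p 0.032). All line libraries of both genes lay above all wild-type libraries, with replicate 3 the lowest of the line.

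CML44 was at 11.9, 19.5 and 15.9 FPKM in wild type and 50.1, 53.9 and 46.7 FPKM in the line, a log2 difference of 1.58 ± 0.23 (adjusted p 0.0016). CML41, a sensor of plasmodesmata that acts in callose deposition during immune responses, was at 65.9, 125 and 72.7 FPKM against 207, 266 and 239.8 FPKM, 1.34 ± 0.34 (adjusted p 0.024). The line was above wild type in every library of these genes too. CML38, CML27 and CML35 were higher by 1.00 ± 0.30, 0.67 ± 0.19 and 0.62 ± 0.15 (adjusted p 0.0488, 0.041 and 0.019). Calls for CML44 and CML46 held in each of 12 fits that left out 1 library, whereas those for CML47, CML38 and CML27 were lost in 5, 9 and 8 of them (adjusted p up to 0.11, 0.19 and 0.13). The CML27 call was also lost with the replicate block (0.66, adjusted p 0.0527), and the CML38 call with the filter at 5 FPKM or only the groups compared (adjusted p 0.055 and 0.0531). CML35 lost its call without replicate 1 or 3 of untreated wild type or replicate 1 of the untreated line (up to 0.081), and CML41 without any of these or replicate 2 of the untreated line (up to 0.098).

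CML42 was the one sensor called lower in the untreated line, by -0.80 ± 0.17 (adjusted p 0.011, and 0.0523 without replicate 1 of the untreated line). Among kinases CPK6 was higher, 36.1, 27.3 and 30.6 FPKM against 15.01, 21.0 and 17.3 FPKM, by 0.73 ± 0.20 (adjusted p 0.034, lost in 5 of 12 fits that left out 1 library). CPK2 was lower, 0.42, 0.39 and 0.28 FPKM against 0.77, 0.77 and 0.79 FPKM, by -1.19 ± 0.24 (adjusted p 0.0081, held in all 12 but not called by limma, adjusted p 0.082). The well-studied members CML9, CML12, CML24, CML37, CPK1, CPK3, CPK4, CPK11, CPK21, CPK23, CPK27, CPK28 and CPK32 were not called without salt, with log2 differences from -0.32 (CPK3) to 0.96 (CML37). Without replicate 1 of the salt-treated line, a library outside this contrast, CML9, CML36, CML40, CPK10 and CPK15 were also called higher and CPK3, CPK13 and CPK31 lower, by 0.39 to 0.93 and -0.31 to -0.43.

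**Figure D4:**
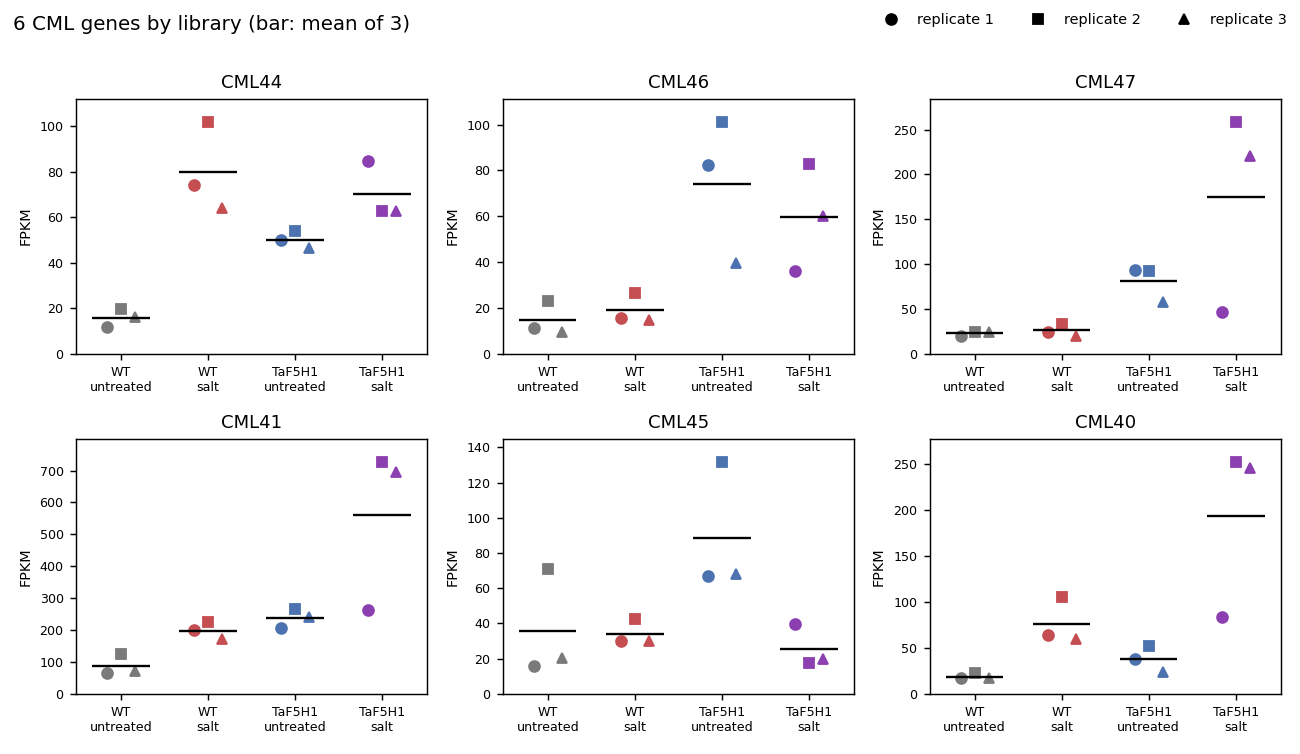
FPKM (linear axis from 0) of 6 CML genes in each of the 12 libraries, by group, with a horizontal bar at the mean of 3 libraries. CML44, CML46, CML47 and CML41 were higher in every untreated line library than in untreated wild type, and replicate 1 of the salt-treated line was far below the other two for CML47, CML41 and CML40 and above them for CML44 and CML45.

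Under salt, 9 CML genes were higher in the line than in wild type, 1 was lower and 18 were not called, with 34.3% of all genes called (15.5% up, 18.8% down) and a CML median of 0.46 against -0.03. Among kinases 7 were higher, 2 lower and 15 not called, with a median of 0.23. Without replicate 1 of the salt-treated line the counts were 15 and 1 for CML and 10 and 1 for CPK. Added then were CML12, CML14, CML18, CML20, CML27, CML36, CPK3, CPK5 and CPK13, with log2 differences of 0.33 to 0.94, and CPK9 was no longer called (-0.31, adjusted p 0.051). Without CML8, which the filter admitted through the salt-treated line, 8 CML genes were higher over all 12 libraries. A fit of the salt-treated libraries alone called 6 CML genes higher and 0 lower and 1 CPK gene higher and 1 lower. It called 1722 of all 17038 tested genes, where the fit of all 12 libraries called 5848. Not called by it were CML8, CML16, CML40, CML41, CML42, CML50, CPK6, CPK7, CPK9, CPK10, CPK23, CPK29 and CPK31. Libraries of the line lay wholly above wild type for 14 of the 52 genes and wholly below for 3, where 45.2% of all tested genes did not overlap.

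CML47 had the largest difference under salt, with 24.6, 33.5 and 19.3 FPKM in wild type and 46.9, 259 and 220.3 FPKM in the line. All line libraries were above wild type, but replicate 1 was far below the other two. The log2 difference was 2.71 ± 0.49 (adjusted p 0.004), and 3.16 ± 0.25 without that replicate. CML41, at 199, 224 and 171 FPKM in wild type, was at 262, 727 and 694 FPKM in the line, a difference of 1.46 ± 0.34 (adjusted p 0.01) that was 1.79 ± 0.22 without replicate 1. CML46 remained higher, 35.9, 82.6 and 60.0 FPKM against 15.6, 26.4 and 14.7 FPKM (1.61 ± 0.43, adjusted p 0.017), and the call was lost without replicate 1 or 3 of salt-treated wild type or replicate 2 of the salt-treated line (adjusted p up to 0.069).

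CML39 was higher by 1.75 ± 0.46 (adjusted p 0.016), and 2.09 ± 0.38 without replicate 1 of the line, and CML40, CML16, CML5 and CML50 by 1.3, 1.04, 0.77 and 0.54. Without that replicate CML40 was at 1.66 ± 0.30 and CML16 at 1.31 ± 0.33. CML50 kept its call in all 12 fits that left out 1 library but not in the fit of the salt-treated libraries alone (adjusted p 0.059), and CML39, CML40, CML5 and CML16 lost theirs in 4, 4, 4 and 6 of the 12 (adjusted p up to 0.14). CML8, which passed the filter only through this group, was at 0.15, 0.69 and 0.56 FPKM in salt-treated wild type and 1.15, 2.5 and 2.63 FPKM in the line. CML42 was again lower, 1.31 to 1.57 FPKM against 1.91 to 2.94 FPKM (-0.86 ± 0.22, adjusted p 0.014), a call lost without replicate 1 or 2 of salt-treated wild type or replicate 2 of the salt-treated line (up to 0.0524). Of the kinases CPK31 was higher by 2.07 ± 0.42 (adjusted p 0.0059), and CPK29, CPK6, CPK7, CPK10, CPK23 and CPK15 by 0.52 to 0.87. CPK7 and CPK10, with adjusted p of 0.0472 and 0.0473, kept their call in 1 of 12 fits that left out 1 library, the one without replicate 1 of the salt-treated line, and CPK29, CPK6, CPK23 and CPK15 lost theirs in 5 of 12. Without that replicate the differences were 2.51 ± 0.15 for CPK31, 1.18 ± 0.13 for CPK29, 0.84 ± 0.15 for CPK6 and 0.70 ± 0.13 for CPK23. CPK28, which marks the immune kinase BIK1 for turnover, was lower, 22.2, 23.9 and 24.0 FPKM against 35.5, 48.0 and 36.9 FPKM (-0.81 ± 0.17, adjusted p 0.0071), and the difference of CPK9 was -0.38 ± 0.12 (adjusted p 0.035, lost in 7 of 12 fits). CML9, CML12, CML24, CML37, CML38, CPK1, CPK3, CPK4, CPK11, CPK21, CPK27 and CPK32 were not called, with log2 differences from -0.32 (CPK32) to 0.99 (CML37), and of these CML12 (0.53 ± 0.18, adjusted p 0.021) and CPK3 (0.34 ± 0.10, adjusted p 0.011) were called higher without replicate 1 of the salt-treated line.

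**Figure D5:**
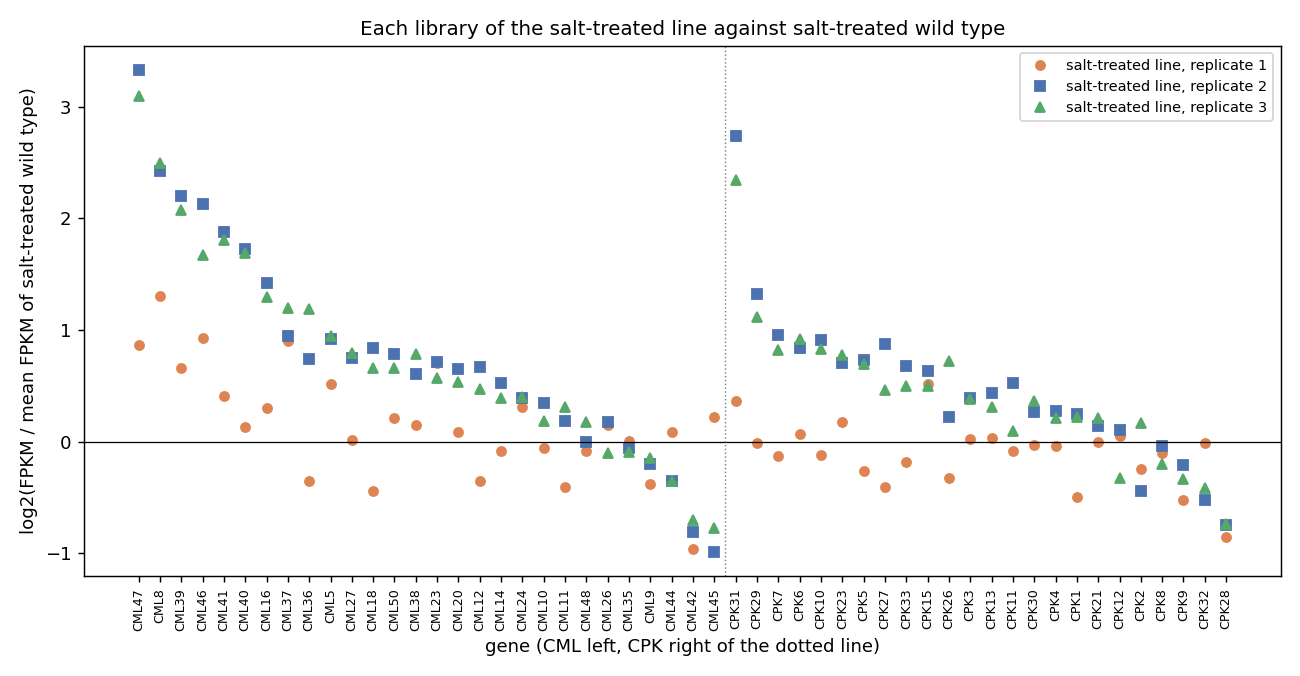
Log2 of the FPKM of each library of the salt-treated line over the mean of salt-treated wild type (vertical axis) for the 52 genes, CML left and CPK right of the dotted line, ordered by the mean of replicates 2 and 3. Replicates 2 and 3 run close together, and replicate 1 is the lowest of the 3 for 42 of the 52 genes, with 22 of the 52 at no more than 1/1.5 of their mean.

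For 22 of the 52 genes (42.3%) replicate 1 of the salt-treated line was at no more than 1/1.5 of the mean of the other two libraries, as it was for 17.3% of all tested genes. It was at 1.5 times that mean or more for CML45 alone (1.92%), against 22.7% of all tested genes. Replicate 2 was the library most often high in each of the 4 groups. In the untreated groups 11 of the 52 genes (21.2%) in wild type and 10 (19.2%) in the line were at least 1.5 times the mean of the other two, against 5.61% and 9.01% of all tested genes. In the salt groups these were 5 (9.62%) and 9 (17.3%), against 2.83% and 6.16% of all tested genes. CML16, CML23, CML24, CML37, CML38, CML45 and CML46 were among the high genes of replicate 2 in both untreated groups. CML45, for example, was at 15.9, 70.9 and 20.5 FPKM in untreated wild type and 66.8, 132 and 67.8 FPKM in the untreated line. What set these libraries apart was not tested.

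The third comparison asked whether the salt response of the 2 genotypes differed. The value given is the log2 fold change with salt in the line after subtraction of that in wild type. Of the CML genes 0 had a positive and 1 a negative called difference, and of the CPK genes 1 and 1, where 5.59% of all genes were called (2.83% up, 2.76% down). At an unadjusted p under 0.05 there were 6 CML and 8 CPK genes. Without replicate 1 of the salt-treated line 4 CML genes were called up and 3 down, and 8 CPK genes up and 2 down. Added were CML8, CML18, CML47, CML50, CPK2, CPK3, CPK5, CPK7, CPK13, CPK23 and CPK29 up and CML9, CML35 and CPK9 down. DESeq2 on all 12 libraries called 5 CPK genes up and 2 down. It called 2531 of all 17038 tested genes, against 952 in edgeR. With library totals the all-gene median shifted from -0.07 to -0.14 and upward calls went from 50.6% to 33.1% of all calls.

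CML44 was the sensor called. Wild type rose from 11.9, 19.5 and 15.9 FPKM to 74.2, 102 and 64.1 FPKM, whereas the line stood at 50.1, 53.9 and 46.7 FPKM before salt and at 85.0, 62.6 and 62.7 FPKM after it. Untreated libraries of the 2 genotypes did not overlap, and salt-treated ones did. The salt response was 2.55 ± 0.23 in wild type and 0.75 ± 0.22 in the line, a difference of -1.80 ± 0.31 (adjusted p 0.016), called in each of 12 fits that left out 1 library.

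CPK28 fell more in the line. It went from 49.7, 70.9 and 50.6 FPKM to 35.5, 48.0 and 36.9 FPKM in wild type (-0.31 ± 0.17, adjusted p 0.15) and from 81.5, 64.6 and 74.8 FPKM to 22.2, 23.9 and 24.0 FPKM in the line (-1.40 ± 0.17, adjusted p 3.3e-05). The difference of -1.09 ± 0.24 (adjusted p 0.03) was lost in 9 of 12 fits that left out 1 library, with an adjusted p of up to 0.081. Its size stayed between -1.27 and -0.93.

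CPK31, a kinase linked to arsenite uptake through an aquaporin, was at 15.2, 16.1 and 14.6 FPKM in untreated and 2.45, 2.38 and 2.32 FPKM in salt-treated wild type (-2.48 ± 0.42, adjusted p 0.00045). In the line it was at 12.02, 11.4 and 12.7 FPKM without salt and at 3.06, 15.9 and 12.1 FPKM with it, so that replicate 1 was near the salt-treated wild type and the other two were at the untreated level (0.03 ± 0.39). The difference was 2.51 ± 0.57 (adjusted p 0.032), lost in 11 of 12 fits that left out 1 library (adjusted p up to 0.085), with the replicate block (2.41, adjusted p 0.0518) and with limma (1.83, adjusted p 0.0547), and it was 2.93 ± 0.19 (adjusted p 3.8e-07) in the remaining one, without replicate 1 of the salt-treated line.

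CPK31 lies in a row of related kinase genes on chromosome 4, CPK31, CPK27, CPK22, CPK21 and CPK23, between positions 2381348 and 2408737 (TAIR10). Along that row the values with salt in wild type differed: CPK31 and CPK27 fell by 2.48 and 1.38 on the log2 scale, CPK22 was below the filter at 0.0875 FPKM, CPK21 was at 0.13 and CPK23 at -0.40. Neighbouring sensors had the same direction. CML38 and CML39, 883 bases apart on chromosome 1, both rose, and CML10 and CML12, 37 bases apart on chromosome 2, both fell, in both genotypes. How reads shared by such related genes were divided is not given in the sources used here.

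Other genes of calcium signalling were counted by lists, against shares over all tested genes of 27% up and 26.5% down with salt in wild type and 31.4% up and 33.4% down in the line. All 7 calmodulin genes were measured, and 5 rose and 0 fell in wild type and 6 and 0 in the line. CAM1 was at 67.5 ± 5.43 FPKM (SD, n = 3) in untreated and 142 ± 6.22 FPKM in salt-treated wild type (1.28 ± 0.19 on the log2 scale, adjusted p 0.00018). Of 22 calcium ATPases and exchangers, which clear calcium from the cytosol, 14 rose and 3 fell in wild type, where 53.5% of all genes were called, and 16 and 2 in the line, where 64.8% were. The cation exchangers CCX1 and CCX2 went from 4.70 ± 0.693 and 7.24 ± 1.36 FPKM to 56.2 ± 3.67 and 54.0 ± 2.33 FPKM in wild type.

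Of 34 calcium channel genes 11 were up and 10 down in wild type and 9 and 11 in the line, with 53.5% and 64.8% of all genes called, and 15 of the 60 channel names on the list, all OSCA genes, matched no symbol and were not analysed here. The cyclic nucleotide-gated channel genes CNGC11 and CNGC3 fell by 3.81 and 2.27 on the log2 scale in wild type (adjusted p 2.9e-08 and 8.6e-06). On the list of 14 calmodulin-binding transcription factors and their relatives, CAMTA5, CAMTA6 and CBP60E matched no gene and were not analysed here. Among the 11 that did, 3 rose and 3 fell in wild type and 7 and 2 in the line. The shares of all genes called were the same 53.5% and 64.8%. Under salt 6 of the 11 were higher and 0 lower in the line than in wild type. Of all genes 15.5% were higher and 18.8% lower in that comparison. SARD1 and CBP60G, which drive salicylate synthesis, were higher by 2.47 ± 0.42 and 2.94 ± 0.61 (adjusted p 0.0034 and 0.0066). Their libraries of the salt-treated line were widely spread, with an SD of 31.5 FPKM for SARD1 and 79.3 FPKM for CBP60G. In salt-treated wild type the SDs were 4.09 and 5.45 FPKM. For the genes of these lists, how far values and counts depend on replicate 1 of the salt-treated line was not tested.

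Of 25 known CPK substrates 13 rose and 3 fell in wild type, where 27% of all genes rose and 26.5% fell, and 14 and 5 in the line, where 31.4% and 33.4% did. The list was not tested. ABI5 and ABF3, transcription factors of the abscisic acid response, rose by 4.64 ± 0.23 and 2.30 ± 0.21 in wild type (adjusted p 4.2e-08 and 3.8e-06). On the list of 12 related kinases CRK5, PEPRK1 and PEPRK2 matched no gene and were not analysed here. Of the 8 related kinases tested 2 rose and 2 fell in wild type and 4 and 1 in the line, with 53.5% and 64.8% of all genes called. Among them was CRK2, a CPK-related kinase, at 21.3 ± 1.09 FPKM before and 86.7 ± 3.29 FPKM after salt in wild type (2.23 ± 0.22, adjusted p 8e-06).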

How the data were processed

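Each of the 12 libraries came from leaves of 14-day-old seedlings, 3 per group. Per the labels' protocols, RNA was extracted with TRIzol or an RNeasy kit and sequenced on standard Illumina libraries. HISAT2 2.0.1, cutadapt 1.9.1, bcl2fastq 2.17.1.14 and the TAIR10 genome are listed in the submitters' processing notes. Neither the program that counted reads nor a strand setting is given in the sources used here. The authors deposited raw counts per gene and FPKM values, and FPKM recomputed from count, exon length and library total matched within 0.005. The wheat transgene was not analysed here.

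Counts of all 17038 genes with a mean of at least 1 FPKM were fitted together in edgeR 4.0.16 (R 4.3.3, quasi-likelihood test, robust, TMM factors), with 1 mean per group over the 12 libraries, Benjamini-Hochberg adjustment over all genes and a call at an adjusted p under 0.05. The SE of a log2 fold change came from the fold change and its F statistic. The p-values measure the spread between 3 replicates a group. The fit was also run on simulated counts, with changes set in salt-treated wild type alone and the same spread per gene in all groups. That run does not bear on calls that depend on replicate 1 of the salt-treated line. The members, gene lists and tests were chosen with earlier results of these data known, so no list was tested. Lists named are calmodulins, calcium ATPases and exchangers, calcium channels, calmodulin-binding transcription factors and their relatives, CPK substrates and related kinases.

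The genes set out for full values were called CML genes with the 5 highest and 5 lowest log2 fold changes, called CPK genes with the 4 highest and 4 lowest, a fixed set of well-studied members, and up to 3 called genes of a list with the smallest adjusted p. Some of these are given without library values, SE or adjusted p. Other values were chosen after they were seen. Alternatives were DESeq2 1.42.0, median-of-ratios factors, library totals, no filter, a filter at 5 FPKM, limma 3.58.1 on log2(FPKM + 1), the replicate number as a block, only the groups compared, and leaving out each library. Promoter windows covered the 250 bases before each gene start in the TAIR10.1 assembly.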

Additional observations from a re-analysis of the deposited data

Results flagged for a closer look

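The salt response of the line differed from that of wild type by the interaction test for 3 of the 52 genes (5.77%), against 5.59% of all tested genes. CML44 differed by -1.80 on the log2 scale, with a higher untreated level in the line and overlapping levels after salt. CPK28 differed by -1.09, with a deeper fall in the line, a call lost in 9 of 12 fits that left out 1 library. CPK31 differed by 2.51, with a fall in wild type and with replicate 1 of the salt-treated line apart from the other two libraries of its group. The CPK31 call was lost in 11 of 12 such fits.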

How the results depend on the processing

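Numbers of called genes moved by more than 1.5 times in the following cases. For salt in wild type, CPK genes called up were 5 with the filter at 5 FPKM, and CPK genes called down were 8 with library totals or limma and 3 with no filter. For the line without salt, CPK genes called up were 2 with library totals, limma, DESeq2 or only the groups compared, and CPK genes called down were 0 with the 5 FPKM filter or limma, 2 with only the groups compared and 3 with DESeq2. For the line under salt, only the groups compared gave 0 CML down, 1 CPK up and 1 CPK down, and median-of-ratios factors, library totals and limma gave 1 CPK down. For the interaction, CML genes called down were 2 with library totals or limma and 3 with DESeq2, CPK genes called up were 0 with limma and 5 with DESeq2, and CPK genes called down were 2 with library totals, the 5 FPKM filter, limma or DESeq2. Calls over all tested genes moved as well. Without salt DESeq2 called 3407 genes and only the groups compared 4042, in place of 2343. Under salt only the groups compared called 1722 in place of 5848. For the interaction DESeq2 called 2531 in place of 952. The filter at 5 FPKM tests fewer genes, and for the other settings the cause was not tested.

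Leaving out 1 library gave, for salt in wild type, 15 CML up, 3 to 5 CML down, 6 to 11 CPK up and 2 to 7 CPK down, and for salt in the line 14 to 17, 4 to 6, 9 to 13 and 3. It gave 2 to 10, 0 to 1, 0 to 3 and 1 to 4 for the line without salt, 3 to 15, 0 to 1, 1 to 10 and 1 to 2 for the line under salt, and 0 to 4, 1 to 3, 0 to 8 and 0 to 2 for the interaction. Signs turned for 16 of 126 gene results, 0 of them called. Over the fits that left out 1 library, values crossed 0 for the interaction of CML12 (-0.28 to 0.17), CML24 (-0.25 to 0.32), CML37 (-0.52 to 0.52), CML42 (-0.24 to 0.07), CPK21 (-0.06 to 0.07) and CPK6 (-0.25 to 0.10), for the line under salt of CPK1 (-0.12 to 0.19), CPK11 (-0.01 to 0.29) and CPK27 (-0.01 to 0.85), for the line without salt of CPK23 (-0.18 to 0.03), and for salt in the line of CPK11 (-0.30 to 0.02), CPK32 (-0.19 to 0.09) and CPK4 (-0.08 to 0.08). Library totals and limma turned salt in wild type for CPK21 (-0.08 and -0.07), salt in the line for CPK21 (-0.12 and -0.11) and CPK23 (-0.02 and -0.03), and the interaction of CPK21 (-0.04 in both, -0.00 with no filter). Median-of-ratios factors, DESeq2 and only the groups compared turned salt in the line for CPK32 (0.02, 0.02 and 0.01) and CPK4 (0.03, 0.03 and 0.01), and the line under salt for CPK1 (0.04, 0.04 and 0.03, and 0.03 with library totals). The interaction of CML37 was -0.03 with library totals and that of CML42 0.17 with limma.

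Over all tested genes, same-numbered replicates did not deviate together in every pair (correlations of -0.263 to 0.257 over 18 pairs, 5 above 0.1, and 13 of 36 best matches with the same number), so the numbers were not taken to pair the libraries, although the CML and CPK genes were most often high in replicate 2 of all 4 groups. With the replicate number as a block, CPK genes called up in the interaction were 0 in place of 1, and no other count moved by more than 1.5 times. It also ended the calls of CML27 without salt, CPK10 under salt, and CPK9 and CPK26 with salt in wild type. Depth limits CML8, CML39, CPK2 and CPK27 most.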
